A study of Mus musculus with 23 samples.

Results

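The genes described here are 9 mouse genes of keratinocyte cornification: Ivl, Lor, Sprr1a, Tgm1, Sfn, Calml3, Sbsn, Dmkn and Krtdap. They were selected by symbol from a table of estimated counts with 54347 genes, after its Ensembl identifiers were matched to symbols with the version dropped, and all 9 were rows of the table. Expression was measured with Smart-seq2 in 23 libraries of cells from the labial cervical loop, the epithelial fold that feeds growth at the base of the mouse lower incisor. The tissue was taken at postnatal day 2 from Sox2-GFP mice, in which the endogenous Sox2 promoter drives green fluorescent protein, and all 4 groups carry this reporter; the labels name no other allele and no agent. The tissue was dissociated with enzymes and its cells were sorted on the reporter, the Sox2-positive ones being those that the series calls dental epithelial stem cells. Batch A has 6 Sox2-negative and 6 Sox2-positive libraries, batch B has 4 and 7, and each batch is an experiment of its own day and its own mice. Whether libraries within a batch stand for separate mice is not given in the sources used here, so p-values measure the spread between these libraries, which may be technical.

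Cornification is the process by which the outermost keratinocytes of skin and of other stratified epithelia turn into dead, flattened cells. Structural precursors such as involucrin, loricrin and the small proline-rich proteins are crosslinked beneath the plasma membrane by transglutaminases, which gives the cornified envelope, and lipids and secreted proteins seal the layer from outside. The genes of the precursors, of the crosslinking enzymes and of their regulators come on in the layers above the basal, dividing layer. The dental epithelium is also ectodermal and shares keratins and transcription factors with skin, but it makes enamel-forming ameloblasts and does not cornify.

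The sequences before the start sites are shown for 5 of the genes, because the results turn on them: Ivl, which had no count; Krtdap and Dmkn, neighbours on chromosome 7 that were both higher in batch B Sox2-positive libraries; and Sfn and Tgm1, the genes called over both batches. They are the 250 bases before the RefSeq start site on build GRCm38.p6, 5′ to 3′ on the strand of the gene, at chr3:92573736-92573985 (Ivl, minus strand), chr7:30787655-30787904 (Krtdap, plus), chr7:30763506-30763755 (Dmkn, first of 3 start sites, plus), chr4:133602169-133602418 (Sfn, minus) and chr14:55713493-55713742 (Tgm1, first of 2 start sites, minus). Capitals mark matches to any of 4 motifs.
Ivl: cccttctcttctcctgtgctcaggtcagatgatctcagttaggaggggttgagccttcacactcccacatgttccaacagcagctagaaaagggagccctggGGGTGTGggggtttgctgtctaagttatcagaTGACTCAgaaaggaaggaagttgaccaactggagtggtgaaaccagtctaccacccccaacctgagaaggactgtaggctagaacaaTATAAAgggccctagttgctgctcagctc
Krtdap: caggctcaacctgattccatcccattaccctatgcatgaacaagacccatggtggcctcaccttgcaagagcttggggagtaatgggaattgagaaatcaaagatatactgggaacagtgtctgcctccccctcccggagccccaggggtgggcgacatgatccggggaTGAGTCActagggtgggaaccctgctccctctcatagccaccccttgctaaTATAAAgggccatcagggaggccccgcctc
Dmkn: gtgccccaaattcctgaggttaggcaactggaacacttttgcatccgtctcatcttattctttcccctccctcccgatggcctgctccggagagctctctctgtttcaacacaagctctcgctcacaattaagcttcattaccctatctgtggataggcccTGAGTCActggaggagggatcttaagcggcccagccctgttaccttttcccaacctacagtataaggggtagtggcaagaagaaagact
Sfn: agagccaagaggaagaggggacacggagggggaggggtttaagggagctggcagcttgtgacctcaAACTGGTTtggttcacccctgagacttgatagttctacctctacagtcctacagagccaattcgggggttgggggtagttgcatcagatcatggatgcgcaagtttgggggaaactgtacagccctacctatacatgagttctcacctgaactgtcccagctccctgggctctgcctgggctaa
Tgm1: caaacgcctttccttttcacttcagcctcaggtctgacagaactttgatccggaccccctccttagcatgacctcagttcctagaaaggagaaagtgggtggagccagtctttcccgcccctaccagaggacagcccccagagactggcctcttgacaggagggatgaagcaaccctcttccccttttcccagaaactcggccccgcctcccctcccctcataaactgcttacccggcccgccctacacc

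The motifs searched on both strands were TGANTCA, bound by AP-1 factors, AACNGGTT, bound by grainyhead-like factors, TATAAA, the TATA box, and GGGTGTG, bound by KLF factors; their matches in these genes did not overlap each other. RefSeq windows of 300 bases, 250 before to 50 after the start site, were at hand for 8 of the 9 genes. The AP-1 motif was in 6 of these 8 (75.0%: Ivl, Lor, Sprr1a, Sbsn, Dmkn and Krtdap), against 8.97% of the 27025 genes with a window. TATAAA was in 4 of 8 (Ivl, Lor, Sprr1a and Krtdap), against 15.7% of genes. The grainyhead motif was in Sfn and in 2.35% of genes, and the KLF motif was in Ivl and in 9.05% of genes. In Ivl the AP-1 motif began at position -116 and the TATA box at -29, counted from the base before the start site as -1. In Krtdap they began at -81 and -30. In Sfn the grainyhead motif began at -184. None of the 4 motifs was in either Tgm1 window, and such matches or missing matches describe the letters only.

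The depth, the sort and the cells in the libraries bear on every gene below. Total estimated counts ran from 2305778 to 9541443 per library with a median of 4831091, so that 3 counts, taken as the smallest level that can be shown, came to 0.357 to 1.30 CPM in a single library, CPM being counts scaled to 1 common total with TMM factors. Batch B libraries numbered 1 and 2 lay apart from the others of their group on the first principal component of log2 CPM (genes past the filter, all 23 libraries). They lay at 89.1 and 87.6 against 98.5 to 104 in Sox2-positive cells, and at -113 and -113 against -105 and -104 in Sox2-negative cells. By rank correlation the Sox2-positive libraries showed no such split. There the median Spearman's rho was 0.962 both within these sets of libraries and between them, against 0.931 within and 0.920 between in Sox2-negative cells. The labels give no reason for the shift of libraries 1 and 2, and the batch B values of the genes below are therefore also given without them. Sox2, whose promoter drives the reporter, averaged 7.27 ± 4.41 CPM (SD, n = 6) in batch A and 16.4 ± 2.91 (n = 7) in batch B Sox2-positive libraries, and 0.0436 ± 0.107 (n = 6) and 0.297 ± 0.594 (n = 4) in the Sox2-negative ones. The 10 pan-epithelial genes (Epcam, Cdh1 and others) were all higher in Sox2-positive libraries, with a summed level of 2267 to 2875 CPM against 153 to 347. The 8 basal keratinocyte genes (Krt5, Krt14 and others) were all higher as well. In the other direction, all 10 mesenchyme, 8 leukocyte, 6 endothelial and 7 erythroid genes were lower. The Sox2-positive libraries were not epithelial alone: the 7 Schwann and neural crest genes summed to 841 to 1045 CPM in batch A and to 38.7 to 78.1 CPM in batch B Sox2-positive libraries, against 1.68 to 15.0 in Sox2-negative ones. In bulk libraries, fewer cells of a type and less RNA per cell cannot be told apart.

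Of the 9 genes, 2 rose and none fell in Sox2-positive against Sox2-negative cells over both batches: Sfn, by a log2 fold change of 3.38, and Tgm1, by 2.06. Only 5 of the 9 passed the filter on low counts in this comparison, and Ivl, Sprr1a, Krtdap and Calml3 did not. Among the 5, Tgm1 and Dmkn passed it only through Sox2-positive libraries, so the count over the 5 is a description. The background is high, since edgeR's quasi-likelihood test called 57.5% of the 17190 genes tested (adjusted p under 0.05), 24.9% higher and 32.5% lower. In batch A, 2 of the 9 genes passed the filter and Sfn alone was higher, with a background of 43.4% of 14296 genes called (19.3% higher, 24.2% lower). In batch B, 6 passed and 4 were higher (Sfn, Tgm1, Dmkn and Krtdap), with a background of 54.7% of 15765 genes called (27.1% higher, 27.6% lower). Of these, Tgm1, Dmkn and Krtdap passed the filter only through the Sox2-positive libraries, where they were high. The count over the 6 is therefore a description as well. The list was thus a mixture of 1 abundant gene, a few genes at the edge of detection and genes that were not detected. Sfn took 92.6% and 92.4% of the counts of the 9 genes in batch A and batch B Sox2-positive libraries, and 62.8% and 76.7% in the Sox2-negative ones.

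**Figure D1:**
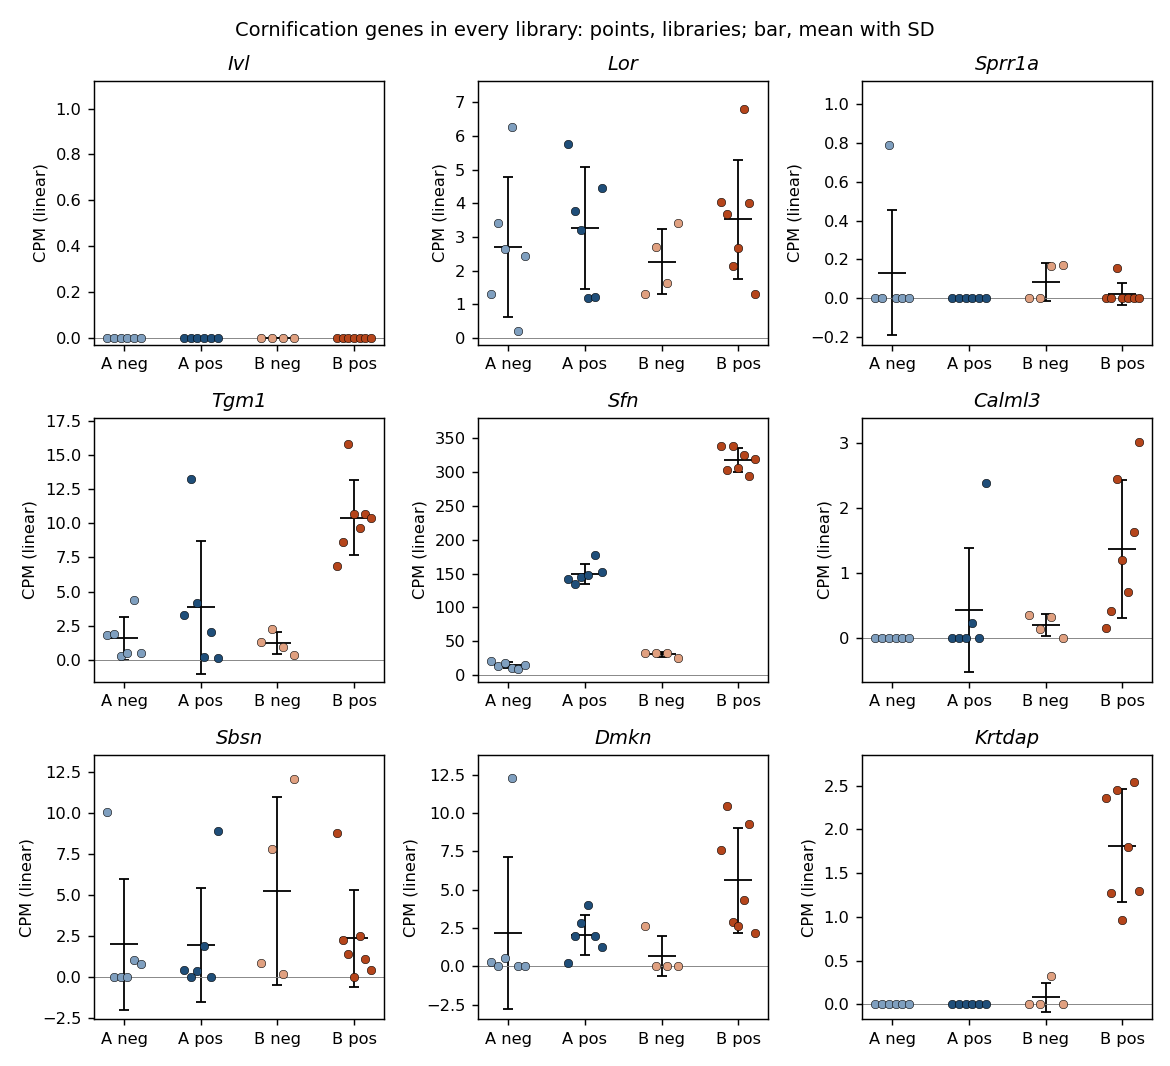
Level of each of the 9 genes in CPM (y axis, linear) in the 4 groups (x axis: batch A or B, Sox2-negative or Sox2-positive), with 1 point per library and the mean with its SD as bars. Ivl lies at 0 in all 23 libraries, Sfn in Sox2-positive libraries lies between 134 and 339 CPM, and Krtdap is above 0.326 CPM only in the 7 batch B Sox2-positive libraries.

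Involucrin, loricrin and the small proline-rich proteins are the precursors that fill the cornified envelope. Ivl (ENSMUSG00000049128.7, chr3:92570902-92573735 in mm10, minus strand), which encodes involucrin, the scaffold on which the envelope is laid down, had 0 counts in all 23 libraries. Taken over all libraries, 3 counts would be 0.0257 CPM, so a level up to that one is allowed, counting error alone considered. Sprr1a (ENSMUSG00000050359.7, chr3:92483952-92485895, minus strand), a proline-rich crosslinking precursor, had 6 counts in all, 3 of them in 1 batch A Sox2-negative library. Both genes lie in the epidermal differentiation complex on chromosome 3 and are defining genes of cornification. Lor, another envelope precursor gene on chromosome 3, had at least 1 count in all 23 libraries, as did Sfn and Tgm1. At least 3 counts were found in 22 libraries for Lor, 23 for Sfn and 17 for Tgm1. Whether a cornification program is active in these cells was not tested. The list is therefore named by the known role of its genes in skin.

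Lor (ENSMUSG00000043165.7, chr3:92080271-92083142, minus strand) encodes loricrin, the main protein of the epidermal envelope. It had at least 1 count in all 23 libraries. The lowest, median and highest levels were 0.210, 2.53 and 6.28 CPM in batch A Sox2-negative and 1.19, 3.48 and 5.76 CPM in batch A Sox2-positive libraries. In batch B they were 1.31, 2.70, 1.63 and 3.40 CPM in the 4 Sox2-negative libraries and, as lowest, median and highest, 1.30, 3.67 and 6.82 CPM in the Sox2-positive ones. The populations overlapped in both batches and the group means lay between 2.26 ± 0.965 CPM (SD, n = 4, batch B Sox2-negative) and 3.52 ± 1.78 (n = 7, batch B Sox2-positive). By edgeR the log2 fold change was 0.44 (SE 0.46, adjusted p 0.427) over both batches, 0.28 (SE 0.68, adjusted p 0.769) in batch A and 0.71 (SE 0.55, adjusted p 0.289) in batch B. Loricrin message was thus low in both populations, with at least 3 counts in 22 of the 23 libraries and 1 count in batch A Sox2-negative library 5. No difference was detectable at this depth, or without batch B libraries 1 and 2 (0.45 in batch B, edgeR adjusted p 0.682).

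Tgm1 (ENSMUSG00000022218.16, chr14:55700009-55713926, minus strand) encodes the membrane-anchored transglutaminase that crosslinks the envelope precursors. In batch A it had a lowest, median and highest level of 0.264, 1.17 and 4.41 CPM in Sox2-negative and 0.159, 2.67 and 13.3 CPM in Sox2-positive libraries. The batch A populations overlapped, and 1 Sox2-positive library (number 2, 74 counts) held 60.2% of the group's 123 counts. In batch B it was 1.31, 2.25, 0.978 and 0.340 CPM in the 4 Sox2-negative libraries, and 6.91, 10.4 and 15.8 CPM as lowest, median and highest in the Sox2-positive ones. There the populations did not overlap. By edgeR it rose by 2.06 on the log2 scale (SE 0.63, adjusted p 0.00715) over both batches and 3.13 (SE 0.50, adjusted p 6.51e-05) in batch B, where all 7 Sox2-positive libraries were above all 4 Sox2-negative ones. Tgm1 passed the filter in these fits only through the Sox2-positive libraries. The edgeR fits without a filter gave 2.14 (adjusted p 0.00591) over both batches and 3.17 (adjusted p 4.67e-06) in batch B. Batch B Sox2-positive libraries 1 and 2 were the lowest of their group, at 6.91 and 8.62 CPM, and without the libraries of these numbers the batch B value was 4.09 (adjusted p 0.000514). In batch A alone Tgm1 did not pass the filter, and the fit without it gave 1.33 (SE 1.05, edgeR adjusted p 0.319), so no rise was shown within batch A. The difference in batch B minus that in batch A was 1.80 (SE 1.13, adjusted p 0.409), so the batches were not shown to differ. A stretch of 182 exon bases is shared with Gm49067 on the other strand, and strand use is not given in the sources used here, but Gm49067 had at most 1 count in any library.

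Sfn (ENSMUSG00000047281.3, chr4:133600556-133602168, minus strand) encodes stratifin, the epithelial member of a family of adaptor proteins that bind phosphorylated partners, which restrains cell division and is high in differentiating keratinocytes. In batch A its lowest, median and highest levels were 9.45, 13.8 and 20.9 CPM in Sox2-negative and 134, 146 and 178 CPM in Sox2-positive libraries. In batch B they were 32.9, 33.2, 31.8 and 25.3 CPM in the 4 Sox2-negative libraries, and 295, 320 and 339 CPM as lowest, median and highest in the Sox2-positive ones. The populations were far apart in both batches, and in each population every batch B library was above every batch A library. Between populations it rose by 3.39 on the log2 scale (SE 0.21, edgeR adjusted p 2.82e-09) in batch A and 3.44 (SE 0.13, adjusted p 2.1e-12) in batch B. These are ratios of mean CPM of 10.4 and 10.3, and their difference on the log2 scale was -0.02 (SE 0.20, adjusted p 0.989). Without batch B libraries 1 and 2 the batch B value was 3.50. Sfn was also the most even of the genes with counts in these groups, with a coefficient of variation of 5.48% in batch B and 10.1% in batch A Sox2-positive libraries.

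**Figure D2:**
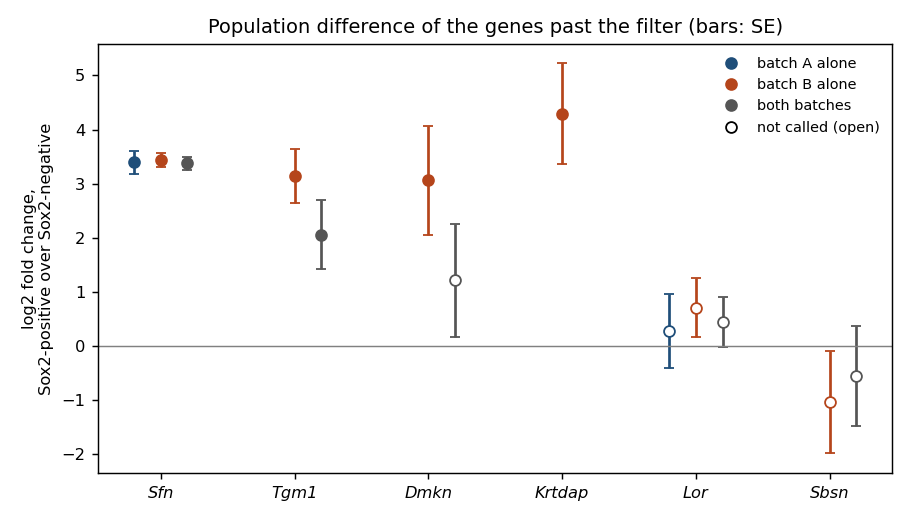
Log2 fold change of Sox2-positive over Sox2-negative cells (y axis, edgeR, bars are 1 SE) for the 6 genes that passed the filter in any of 3 fits: batch A alone, batch B alone and both batches. Filled points are called at an adjusted p under 0.05; Sfn lies at 3.39, 3.44 and 3.38, while Lor and Sbsn have no filled point.

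Between the batches, Sfn was the 1 gene that rose of the 5 tested. In Sox2-positive cells it was higher in batch B by 1.09 on the log2 scale (SE 0.13, edgeR adjusted p 1.76e-06), and in Sox2-negative cells it was 1.10 (SE 0.16, adjusted p 3.45e-05). Over all genes tested, the calls between batches came to 10.4% in Sox2-positive cells (4.85% higher in batch B, 5.54% lower) and 11.2% in Sox2-negative cells (5.85% higher, 5.35% lower). Batch, day and mice cannot be told apart. Other lists moved between the same Sox2-positive libraries: the summed pan-epithelial level was 2267 to 2493 CPM in batch A and 2679 to 2875 CPM in batch B, that of the ameloblast list was 293 to 349 CPM and 9.80 to 17.3 CPM, with 4 of its 5 genes past the filter called lower, and all 7 Schwann genes were called lower. Among Sox2-negative libraries the summed erythroid level was 985 to 1188 CPM in batch A and 53611 to 62038 CPM in batch B. The part of these lists in the batch difference of Sfn was not tested. For Tgm1 the batch difference in Sox2-positive cells was 1.42 (SE 0.72, adjusted p 0.254). Without batch A Sox2-positive library 2, which held the highest level of that group, it was 2.40 (adjusted p 0.0404); over all alternatives and left-out libraries the adjusted p ran from 0.0322 to 0.385.

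Sfn was set beside the epithelial genes of the same library, since the populations hold epithelial messages at very different levels. As a percentage of the summed CPM of the 10 pan-epithelial genes, Sfn came to 7.53% ± 2.94 (SD, n = 6) in batch A Sox2-negative and 6.34% ± 0.730 (n = 6) in batch A Sox2-positive libraries. In batch B it came to 9.15% ± 1.29 (n = 4) and 11.4% ± 0.665 (n = 7). The log2 ratio, Sox2-positive minus Sox2-negative, was -0.20 in batch A (two-sided exact permutation test, p 0.405, adjusted p 0.436 over 14 tests) and 0.30 in batch B (exact permutation p 0.00606, the smallest that 7 against 4 libraries can give, adjusted p 0.0101), where all 7 Sox2-positive libraries were above all 4 Sox2-negative ones. In batch A the Sox2-negative libraries ran from 4.39% to 11.4%, around the 5.64% to 7.71% of the Sox2-positive ones, so that the difference there is known only to within that spread. Per unit of pan-epithelial message, the difference of more than 10-fold in CPM thus came to an estimate near 0 for batch A. For batch B it was a small positive ratio, which does not show that Sfn itself rose more there. The Sfn ratios of mean CPM were 10.4 (A) and 10.3 (B). The divisor differed: its means were 199 and 2368 CPM in A, Sox2-negative first, against 337 and 2802 CPM in B. The contrast of the batches here thus follows the divisor. The 14 tests behind the adjusted p also include genes that fall by this divisor, such as Lor. The alternatives were the basal keratinocyte genes as divisor and a pseudocount of 0.1 CPM. Under them the log2 ratio ran from -0.17 to 0.34 in batch A and from 0.32 to 0.44 in batch B. Its sign in batch A thus depended on these choices.

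The ratio was not read for the other genes. The summed level of the pan-epithelial genes was itself far higher in Sox2-positive libraries, with means of 2368 and 2802 CPM (batches A and B) where Sox2-negative libraries had 199 and 337, so that a gene at the same CPM in both populations, such as Lor, falls in this ratio by the choice of its divisor.

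**Figure D3:**
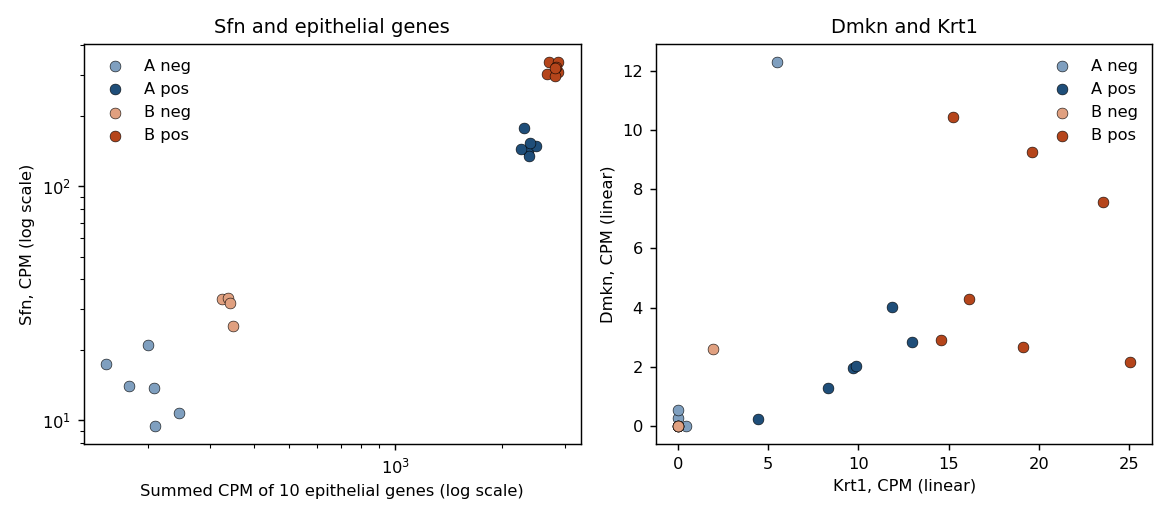
Left, Sfn (y axis) against the summed level of 10 pan-epithelial genes (x axis), both in CPM on log scales, 1 point per library; the Sox2-positive libraries lie at 2267 CPM or more and the Sox2-negative ones at 347 or less. Right, Dmkn (y axis) against Krt1 (x axis) in CPM on linear scales; the batch A Sox2-negative library at 12.3 CPM of Dmkn has 5.49 CPM of Krt1.

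Calml3 (ENSMUSG00000063130.4, chr13:3802896-3804316, minus strand) encodes a calmodulin-like calcium sensor of epithelial cells. It had 0 counts in all 6 batch A Sox2-negative libraries, and in batch A Sox2-positive libraries it had 15 counts in number 6, 1 in number 4 and 0 in the rest. In batch B the counts were 3, 1, 2 and 0 in Sox2-negative libraries and 1 to 16 in Sox2-positive ones, where the mean was 1.38 ± 1.06 CPM (SD, n = 7). All 7 batch B Sox2-positive libraries thus had a count, but their levels overlapped those of the other population. Summed counts scaled by library size were 5.67 times as high in the Sox2-positive as in the Sox2-negative libraries of batch B (95% interval 2.40 to 16.3, counting error only). Calml3 passed the filter in no comparison with all libraries. Without the filter, edgeR gave a log2 fold change of 3.20 over both batches (SE 1.00, adjusted p 0.00963) and 2.66 in batch B (SE 1.20, adjusted p 0.0763).

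Sbsn, Dmkn and Krtdap lie side by side on the plus strand of chromosome 7, with gaps of 7621 and 6832 bases and no coding gene between them, and encode secreted proteins of the suprabasal epidermis. Krtdap (ENSMUSG00000074199.7, chr7:30787896-30791097), the keratinocyte differentiation associated protein, had 0 counts in all 12 batch A libraries. In batch B Sox2-negative libraries it had 0, 0, 2 and 0 counts. In batch B Sox2-positive libraries it had 14, 9, 16, 4, 5, 14 and 3 counts, or 1.81 ± 0.647 CPM (SD, n = 7). Krtdap therefore had at least 3 counts in every library of 1 group, and 2 counts in 1 library of the other 3 groups. All 7 Sox2-positive libraries of batch B were above all 4 Sox2-negative ones, and summed counts scaled by library size differed 25.7-fold (95% interval 6.83 to 217, counting error only). Krtdap passed the filter in batch B only through the Sox2-positive libraries, and it was not tested without Sox2-positive library 1, 3, 5 or 6 or with the filter on a mean of 10 counts. The fit without a filter, which does not select on that group, gave a batch B log2 fold change of 4.31 (SE 1.26, edgeR adjusted p 0.00409), and the filtered one gave 4.29 (SE 0.93, adjusted p 0.000973). Without the batch B libraries numbered 1 and 2 it was 3.31 and not called (adjusted p 0.0536); in the other fits that tested it, 1 library left out included, the adjusted p ran from 0.00039 to 0.00547. Between batches, Krtdap in Sox2-positive cells was at least 19.5-fold higher in batch B, set against 3 counts over the batch A group. With all libraries kept, only the fit without the filter tested this difference, with an edgeR adjusted p of 0.00378. Krtdap also passed the filter over all groups when any 1 batch B Sox2-negative library, or the batch B libraries numbered 1 and 2, were left out.

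Dmkn (ENSMUSG00000060962.12, chr7:30763756-30781063) encodes dermokine. In batch A Sox2-negative libraries it had 47 counts in number 4 and 0 to 2 in the other 5. In batch A Sox2-positive libraries its lowest, median and highest levels were 0.221, 1.99 and 4.03 CPM. Apart from library 4, then, the Sox2-negative libraries of batch A were at or near 0, and library 4 was above every Sox2-positive one of its batch. In batch B, Sox2-negative library 1 had 22 counts and the other 3 had 0. Batch B Sox2-positive libraries lay at 2.16, 4.31 and 10.5 CPM as lowest, median and highest, so that the populations overlapped through 1 library. By edgeR the log2 fold change was 3.06 (SE 1.01, adjusted p 0.0171) in batch B and 1.21 (SE 1.04, adjusted p 0.326) over both batches. Dmkn passed the filter only through Sox2-positive libraries, and the fit without a filter gave 3.12 in batch B (edgeR adjusted p 0.00113). The size in batch B rests on Sox2-negative library 1: without it the fit gave 7.94 (adjusted p 0.000127), and without the libraries numbered 1 and 2 it gave 7.38 (adjusted p 0.00296), both set against libraries at 0 and so dependent on the prior count of the fit. With any other single library left out it was 2.67 to 3.19. Over both batches, edgeR gave 3.24 (adjusted p 0.0014) without batch A Sox2-negative library 4. There limma-voom with sample weights gave 3.40 (adjusted p 0.00102), while the adjusted p reached 0.544 under other alternatives. The difference between batches in the population effect was 3.09 (edgeR adjusted p 0.350), and 7.85 (adjusted p 0.0425) without batch B Sox2-negative library 1. With other single libraries left out it went as low as -0.57, and the adjusted p reached 0.870.

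Sbsn (ENSMUSG00000046056.15, chr7:30751471-30756134) encodes suprabasin. Its counts were concentrated in a few libraries of every group. In batch A Sox2-negative libraries 1 library had 39 of the 47 counts, and in batch A Sox2-positive libraries 1 had 56 of 68. In batch B the 4 Sox2-negative libraries had 7, 52, 1 and 71 counts, and the Sox2-positive ones ran from 0 to 52. The populations overlapped in both batches, with group means from 1.94 ± 3.49 CPM (SD, n = 6, batch A Sox2-positive) to 5.22 ± 5.73 (n = 4, batch B Sox2-negative). Sbsn was not called, with a log2 fold change of -0.55 (SE 0.92, edgeR adjusted p 0.627) over both batches and -1.04 (SE 0.95, adjusted p 0.369) in batch B. Its direction was not stable: over both batches it was 0.38 without batch A Sox2-negative library 1, -0.08 without batch B Sox2-negative library 4 and -1.42 without batch A Sox2-positive library 6. In batch B it was -0.20 without Sox2-negative library 4, -1.91 without Sox2-positive library 1 and -2.44 without libraries 1 and 2, and it was called in none of these fits. Sbsn shares 279 exon bases with Tmem147os on the same strand, which averaged 2.50 to 6.78 CPM in the 4 groups, so reads of the 2 genes could be split between them. Although Sbsn lies next to Dmkn, Pearson's r of their log2 CPM over the 23 libraries was -0.08.

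No difference between the batches in the population effect was called for any of the 5 genes tested by edgeR, and none had an unadjusted p under 0.05. DESeq2 and limma-voom called 0 as well, where edgeR called 7.04% of all genes, 2.82% higher and 4.22% lower.

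Levels between genes were compared per kilobase of merged exon. If the per-gene adjustment described below is one for length, which is not given, this step corrects for length again. In plain CPM, Krtdap, at 1.81 in batch B Sox2-positive libraries, was below Dmkn (5.62), Lor (3.52) and Sbsn (2.35). In batch B Sox2-positive libraries the order was Sfn at 197 CPM per kilobase, Tgm1 at 3.29, Krtdap at 2.67, Dmkn at 2.56, Lor at 1.98, Calml3 at 0.969 and Sbsn at 0.648. Below Sfn, the libraries of each gene overlapped those of its neighbour in this order. In batch A Sox2-positive libraries Sfn was at 92.9 CPM per kilobase, and Lor, at 1.83, was the next.

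The other genes of the pathway were read from 5 lists. The list of further envelope proteins held 45 genes, among them filaggrin, the late cornified envelope proteins and the rest of the small proline-rich proteins. Of these, 23 had 0 counts in all libraries, 34 were under 3 counts in every library, and 5 passed the filter over both batches. Of these 5, 4 rose in Sox2-positive cells, where 24.9% of all genes tested did; Scel and Tchh passed the filter only through the Sox2-positive libraries, where they were high, so the count over the 5 is a description. Scel (sciellin, an envelope precursor) rose by 6.37 (SE 0.54, edgeR adjusted p 1.28e-10), from 0.0350 ± 0.0858 (SD, n = 6) to 25.4 ± 8.33 CPM (n = 6) in batch A and from 0.710 ± 0.975 (n = 4) to 31.7 ± 8.01 CPM (n = 7) in batch B. Tchh (trichohyalin, a protein of the hair follicle sheath) rose by 4.98 and Ppl (periplakin, which ties keratin filaments to the envelope) by 1.89 (adjusted p 0.00403). Cst6, an inhibitor of cathepsins, rose by 2.81 (adjusted p 0.0121). Evpl (envoplakin, the partner of periplakin) did not pass the test, at 0.81 (adjusted p 0.117).

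Of 14 genes of crosslinking and proteolysis, 6 passed the filter, 4 rose and 1 fell, against 24.9% and 32.5% of all genes tested. Spink5 passed only through Sox2-positive libraries, where it was high, so the count over the 6 is a description. The inhibitor Spink5, which restrains kallikreins, rose by 7.18 (SE 0.69, edgeR adjusted p 1.40e-09) and reached 20.1 ± 6.28 CPM (SD, n = 7) in batch B Sox2-positive libraries. The membrane protease Prss8 (prostasin) rose by 3.80, the kallikrein Klk8 by 2.65 and St14 (matriptase), which activates prostasin, by 1.66. Asprv1, the aspartic protease that processes profilaggrin, fell by 1.84 (adjusted p 0.0133). Ctsl (cathepsin L) was at 0.11 (adjusted p 0.413) over both batches, with a difference between batches of 0.74 (SE 0.17, adjusted p 0.0064). The transglutaminases Tgm3 and Tgm5 did not pass the filter.

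Of 15 genes of barrier lipids, 11 passed, 5 rose and 1 fell, with a median of 0.03 where all genes tested had -0.12. The 6 called of 11 are near the 57.5% called over all genes. Cers3 and Fa2h passed only through Sox2-positive libraries, where they were high, so the count over the 11 is a description. Cers3, which makes the ceramides of the skin barrier, rose by 5.15 (SE 0.60, edgeR adjusted p 3.98e-08). Fa2h, a fatty acid hydroxylase that also serves myelin lipids, rose by 5.93, but it averaged 7.14 ± 4.09 CPM (SD, n = 6) in batch A and 0.0513 ± 0.136 (n = 7) in batch B Sox2-positive libraries. The Schwann genes above differ between these groups in the same direction, and their part in the Fa2h level was not tested. Smpd1 rose by 0.85 and Elovl1 by 0.54, while Slc27a4, at -0.27 (adjusted p 0.221), did not pass. Ugcg, the glucosylceramide synthase, fell by 1.24 (adjusted p 2.17e-05).

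Of 20 regulators of keratinocyte differentiation, 19 passed, 9 rose and 5 fell, with a median of 0.68. These 14 calls of 19 stand beside 57.5% called over all genes tested, 24.9% higher and 32.5% lower. Genes such as Ovol1 and Grhl3 passed only through Sox2-positive libraries, where they were high, so the count over the 19 is a description. Trp63 (p63), the master factor of stratified epithelia, rose by 3.26 (SE 0.33, edgeR adjusted p 3.14e-09), to 223 ± 36.7 CPM (SD, n = 6) in batch A Sox2-positive libraries. Ovol1 rose by 5.64 and Grhl3, which activates transglutaminase and barrier genes in skin, by 4.71. In the other direction Prdm1 fell by 3.00 (SE 0.36, adjusted p 8.87e-08) and Cebpa by 2.60. Notch1 was at 0.08 (adjusted p 0.775), with a difference between batches of 1.49 (SE 0.34, adjusted p 0.00666).

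Of 13 suprabasal keratins, 5 passed the filter and these 5 rose, against 24.9% of all genes tested. Krt1 and Krt6a passed only through Sox2-positive libraries, where they were high, so the count over the 5 is a description. Krt17, a keratin of hair follicle and other appendages, rose by 5.29 (SE 0.23, edgeR adjusted p 8.38e-17), to 936 ± 58.8 CPM (SD, n = 6) in batch A and 1413 ± 319.6 (n = 7) in batch B Sox2-positive libraries. Krt1 and Krt10 pair into the filaments of the spinous layer. Krt1 rose by 4.09 (SE 0.79, adjusted p 7.39e-05) and Krt10 by 0.52 (SE 0.19, adjusted p 0.0211), and the group means of Krt10 lay between 17.8 and 28.8 CPM. Krt6a rose by 5.36 and Krt80 by 1.47. As background, all 10 pan-epithelial genes rose in the same libraries, with a median of 3.81.

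**Figure D4:**
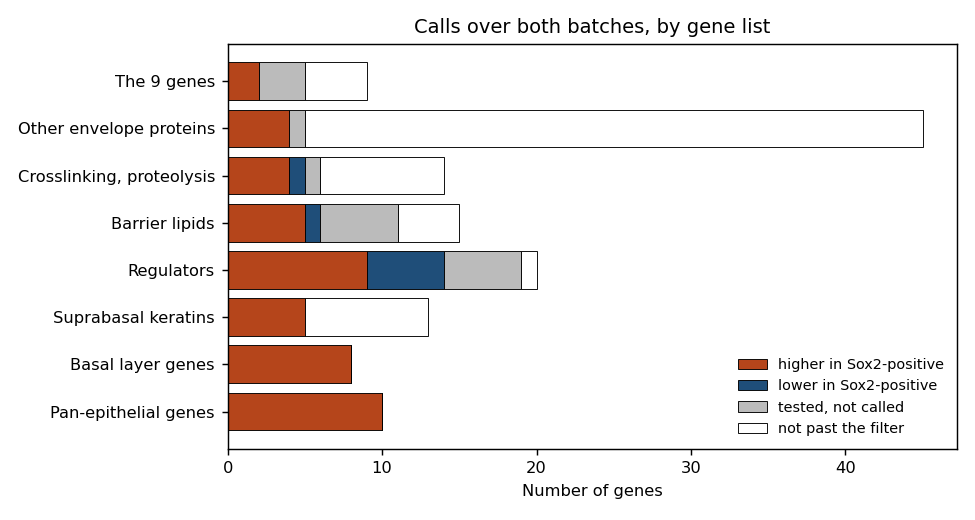
Number of genes (x axis) in each list (y axis) that were called higher in Sox2-positive cells, called lower, tested but not called, or not past the filter, over both batches. Of the 9 genes 2 are called higher; of the 45 other envelope proteins 4 are called higher, and most did not pass the filter.

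The genes most like each gene of the list were sought among 14696 others over the 23 libraries, by Pearson's r of log2 CPM. Because the 4 groups stand apart, these values hold the group differences, and they are given as a description. For Sfn they were Il17re (r = 0.98), Tmprss11d (0.98) and Spint2 (0.98). For Tgm1 they were Mill1 (0.81), Car10 (0.80) and AL805899.1 (0.78). For Dmkn they were Zbtb8b (0.85), Krt1 (0.85) and Kcnb2 (0.83). For Sbsn no gene was above 0.67, the value of Ccdc158.

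With the group means taken out, the gene nearest to Dmkn was Krt1, at r = 0.84 (Spearman's rho 0.61, 23 libraries). The 2 Sox2-negative libraries with Dmkn counts above 2 were also those highest in Krt1: batch A library 4 had 5.49 CPM and batch B library 1 had 1.90 CPM, against at most 0.427 in the other 8. They were also the only Sox2-negative libraries with a count of Sox2, with 1 in batch A library 4 and 10 in batch B library 1. Without these 2 libraries r was 0.53 over 21. Krt1 was chosen from 14696 genes by its r over all 23 libraries, which these 2 raise. Their shared Krt1 is therefore a description and not a separate observation, and the r of 0.53 carries the same choice. The batch A library 4 was the lowest of its group in Krt10, at 9.94 CPM, and had a summed pan-epithelial level of 244 CPM, the highest of its group. Counts of Sbsn were 0 in 3 libraries of this group, library 4 among them, and those of Krtdap and Calml3 were 0 in all 6. With group means taken out, Sfn was nearest to AC122861.4 (0.85), Tgm1 to Larp4 (0.78) and Sbsn to Gm12896 (0.74), and among Sfn, Tgm1, Dmkn and Sbsn the highest r of a pair was 0.18 (Sfn and Sbsn).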

How the data were processed

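The table deposited by the authors holds estimated counts per gene for 23 libraries of Sox2-positive and Sox2-negative cells, not scaled to depth; Trimmomatic, FastQC, Salmon and the build mm10 are named per the submitters' processing notes, with versions not given in the sources used here. Column totals were within 0.111 of whole numbers while 0.000436% of nonzero values were whole (tolerance 1e-06), which points to a per-gene adjustment within the deposited table. Counts were rounded. Symbols and positions came from GENCODE M21, with 54094 identifiers matched (99.5%) and 53307 matched with the version. Columns left unused numbered 0. Promoter windows were taken from RefSeq (GRCm38.p6).

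Tests used edgeR 4.0.16 (R 4.3.3) with TMM scaling, filterByExpr (minimum count 10), batch as a covariate over both batches, and quasi-likelihood F tests, adjusted by Benjamini-Hochberg over all genes tested. Standard errors were the absolute log2 fold change over the square root of F. A model of the 4 group means gave the difference between batches in the population effect and the differences between batches. The fits were tested on simulated data. Ratios to the 10 pan-epithelial genes, log2 of CPM plus 0.5, were compared by exact permutation tests. The 8 basal keratinocyte genes served as an alternative divisor. Alternatives were RLE and total-count scaling, other filters, DESeq2 1.42.0, limma-voom (limma 3.58.1), a replicate block and leaving out libraries. Each library was counted once, since all 57 pairs within groups differed beyond counting noise (chi-square at least 5.19 times its degrees of freedom).

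All 9 genes and Sox2 were named. From each other list, the 4 genes with the highest mean and, for the 5 pathway lists, the 2 highest and 2 lowest fold changes among those called could be named, as could the 3 genes most like each gene with at least 5 CPM in a group. The genes and lists were chosen with earlier results of these data known. Intervals and floors cover counting error only: the protocol names no molecular identifiers, so reads may repeat a molecule. Some genes that this rule covers are not reported here. ATAC-seq libraries were not analysed here.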

Additional observations from a re-analysis of the deposited data

Results flagged for a closer look

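In 28 sets of a gene and a group with at least 1 count, 11 had a highest library whose gap to the next exceeded the 95% critical value of Dixon's test, where chance flags about 1 in 20 sets of normally distributed values. That rate does not hold for counts near 0, and in 4 of the 11 sets (both of Sprr1a, that of Krtdap, and Dmkn in batch B) every other library was at 0, so that any count at all stands apart by construction. Dmkn stood at 12.3 CPM in batch A Sox2-negative library 4, with the next at 0.527, and at 2.62 CPM in batch B Sox2-negative library 1, with the others at 0. Krt1, which was chosen above for its likeness to Dmkn, was highest in the same libraries of both groups. Sbsn stood apart in 3 groups, at 10.1 CPM in batch A Sox2-negative library 1 (next 1.05), 8.92 CPM in batch A Sox2-positive library 6 (next 1.90) and 8.76 CPM in batch B Sox2-positive library 1 (next 2.51). Tgm1 reached 13.3 CPM in batch A Sox2-positive library 2 (next 4.14) and 15.8 CPM in batch B Sox2-positive library 3 (next 10.7).

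Calml3 reached 2.39 CPM in batch A Sox2-positive library 6 (next 0.237), the library that was also high in Sbsn. The last sets rest on 1 to 3 counts each: Sprr1a at 0.791 CPM in batch A Sox2-negative library 3 and 0.153 CPM in batch B Sox2-positive library 3, and Krtdap at 0.326 CPM in batch B Sox2-negative library 3. No set of Sfn or Lor was among the 11.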

How the results depend on the processing

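Sfn stayed called between populations and between batches under every alternative run, with a log2 fold change of 3.37 to 3.50 over both batches. Tgm1 stayed called over both batches (1.92 to 2.25; leaving out 1 library, 1.65 to 2.46). The 2 genes called higher over both batches became 4 without the filter, and 2 to 4 when 1 library was left out. They were 3 without batch A Sox2-negative library 4 (Dmkn added, 5 genes past the filter) and 4 without any 1 batch B Sox2-negative library, when 7 genes passed the filter. In batch B the count was 3 to 4 under the alternatives and 3 to 5 with 1 library left out. For the difference between batches in the population effect, leaving out 1 library gave 0 to 1 (Dmkn, without batch B Sox2-negative library 1). For batch B over batch A in Sox2-positive cells the 1 gene became 2 without the filter, with limma-voom (Tgm1, 2.70, adjusted p 0.0322) and without batch B libraries 1 and 2, and 1 to 2 with 1 library left out. In the epithelial ratio, where a gene at even CPM falls through its divisor, a pseudocount of 0.1 CPM, chosen after seeing the data, gave 1 gene in place of 4 lower in batch B, and Krtdap there reversed to 0.60. The cause of these shifts was not tested, beyond the number of genes passing the filter. Over all genes, the 1210 called for the difference between batches became 481 without batch B libraries 1 and 2 and 536 with the replicate block, and the batch differences fell from 1785 to 1159 and from 1924 to 754 without those libraries. Total-count scaling moved the median of all genes over both batches from -0.12 to 0.0034.

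No pairing of the populations by library number was seen (same-number r of -0.02 to 0.04, none above 0.1), but this check cannot exclude pairing. The highest values were those of batch B numbers 1 and 2, at 0.0400 and 0.0444. With the replicate block Sfn was at 3.47, Tgm1 at 1.92 (edgeR adjusted p 0.0485) and Dmkn at 3.57 (adjusted p 0.0146) over both batches, Sbsn turned to 0.34, and in batch B Dmkn was at 4.74 (adjusted p 0.0182), Sbsn at -0.14, and Krtdap did not pass the filter. Depth limits Ivl, Sprr1a, Krtdap and Calml3, which lay at or under a few counts in most libraries.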
